A study of Mus musculus with 5 samples.

Results

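The 6 mouse genes that encode adenosine deaminases of RNA, Adar, Adarb1 and Adarb2 (the ADAR enzymes) and Adat1, Adat2 and Adat3 (the tRNA deaminases), were taken by symbol from the 53700 genes counted in the study. The family was chosen because Adar stood out by its measured fall in the same comparison that is described here, so the Flox against WT values of the members are a description and carry no test. Of the 6 members, 5 had at least 1 count in any library, and Adat3 had 0 counts in all of them. The libraries were made from ribosome-bound RNA of the midbrain, pulled down by a tag directed to dopaminergic (DAergic) neurons. The genotypes compared were L10a;Esrrg WT (WT, 3 libraries, replicates 2, 3 and 4) and L10a;Esrrg Flox (Flox, 2 libraries, replicates 2 and 4), all from C57BL/6 mice aged 4 months. In every group the mice carried the Cre-dependent EGFP-tagged ribosomal protein L10a and received AAV:THCre in the midbrain, so that Cre under a TH promoter switched on the tag in both groups and deleted part of Esrrg, the nuclear receptor ERRγ, in Flox mice alone. RNA was collected 1 month later. Each library came from the pooled midbrains of several mice, and a conditional deletion of this kind spares Esrrg in cells that Cre did not reach.

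ADAR enzymes bind double-stranded RNA and turn adenosine into inosine, which the ribosome reads as guanosine. In neurons they recode transcripts of receptors and channels, of which the glutamate receptor subunit Gria2 is the best known. Adar makes a long, interferon-inducible protein and a shorter constitutive one, and its editing keeps cellular double-stranded RNA from being sensed as viral. Adarb1 carries out the Gria2 recoding, whereas Adarb2 has no known catalytic activity. The ADAT enzymes act on tRNA: Adat1 modifies a position beside the anticodon of one alanine tRNA, and Adat2 and Adat3 form the enzyme that makes inosine at the wobble position. RNA editing itself was not measured here, only the amount of ribosome-bound transcript.

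Adar lies on chromosome 3 (chr3:89715022-89753446 in GRCm38, + strand, protein-coding). RefSeq places transcript starts of Adar in more than one part of the locus, and the counts are per gene, so the starts cannot be told apart in these data. The 250 bases before the outermost start and the 250 bases before the inner start are printed because the count of the gene sums over transcripts from both. The third line gives the last 30 bases of the inner window, which reaches 50 bases past its start. Capitals mark the letters GAAANNGAA (N, any base), a short form of the interferon-stimulated response element that was chosen after the window had been read.
Adar, outermost start, chr3:89714772-89715021 (GRCm38.p6, +): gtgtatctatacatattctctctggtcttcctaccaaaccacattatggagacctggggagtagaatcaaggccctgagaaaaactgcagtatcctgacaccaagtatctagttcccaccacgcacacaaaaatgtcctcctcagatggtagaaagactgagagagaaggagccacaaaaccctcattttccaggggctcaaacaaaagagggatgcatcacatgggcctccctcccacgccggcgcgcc
Adar, inner start, chr3:89730468-89730717 (GRCm38.p6, +): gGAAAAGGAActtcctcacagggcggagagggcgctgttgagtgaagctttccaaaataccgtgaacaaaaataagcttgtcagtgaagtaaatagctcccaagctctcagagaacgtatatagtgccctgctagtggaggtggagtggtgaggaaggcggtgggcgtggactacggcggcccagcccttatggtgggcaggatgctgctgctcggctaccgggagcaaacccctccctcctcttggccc
Adar, past the inner start, chr3:89730738-89730767 (GRCm38.p6, +): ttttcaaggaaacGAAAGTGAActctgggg
The short form occurred on either strand in 8.56% of all 32851 RefSeq promoter windows, in 7 of the 13 windows of the interferon-stimulated genes listed here, and in 1 of the 7 windows of the family, the inner window of Adar. A stricter form, with one further A at its end, occurred in 3.44% of all windows. It was in 6 of the 13 windows of the interferon-stimulated genes and in 0 of the 7 windows of the family, those of Adar included. Each occurrence of the stricter form also holds the short form. The binding element of ERR receptors, TNAAGGTCA, was in 1.28% of all windows and in 0 of the 7. Its core AAGGTCA, which every such element contains, was in 4.72% of all windows and again in 0 of the 7. The windows belong to 5 of the 6 members, with Adat1 not among them. A match of letters is a description of the sequence, and the absence of one says only that these letters are not in this window.

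Adar (ENSMUSG00000027951.17), the interferon-inducible ADAR1 enzyme, was about 49% lower in Flox. Its normalized read count (the count divided by the library's size factor) was 2699, 2437 and 2894 in WT replicates 2, 3 and 4, and 1574 and 1165 in Flox replicates 2 and 4. Both Flox libraries lay below all 3 WT libraries, and the gap between the groups was wider than the range within either. The mean was 2677 ± 229 (SD, n = 3) in WT and 1370 ± 289 (SD, n = 2) in Flox, a change of the mean by −48.8%. The fitted log2 fold change of the normalized count was −0.97 (SE 0.15).

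Adarb1 (ENSMUSG00000020262.16), the ADAR2 enzyme, had the highest level of the family and was also lower in Flox, by a smaller step. Normalized read counts were 6701, 7198 and 6431 in WT replicates 2, 3 and 4 against 4967 and 5265 in Flox replicates 2 and 4. The groups did not overlap, and here Flox replicate 2 was the lowest library, whereas for Adar it was Flox replicate 4. The mean moved from 6777 ± 389 (SD, n = 3) to 5116 ± 210 (SD, n = 2), or −24.5%, with a log2 fold change of −0.41 (SE 0.10).

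Adarb2 (ENSMUSG00000052551.17), the brain-enriched ADAR3 protein, was counted at 706, 747 and 834 normalized reads in the WT libraries and at 662 and 606 in the Flox libraries. Both Flox values were below the WT values, but the gap between the groups was narrower than the range within either of them. The means were 762 ± 65.4 (SD, n = 3) and 634 ± 39.2 (SD, n = 2), and the log2 fold change was −0.27 (SE 0.14).

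The tRNA deaminases did not share this direction. Adat1 (ENSMUSG00000031949.18) had 127, 136 and 126 normalized reads in WT and 132 and 135 in Flox. The Flox values lay within the WT range, and the log2 fold change was 0.04 (SE 0.23). Adat2 (ENSMUSG00000019808.9), the catalytic subunit of the wobble deaminase, had 159, 122 and 152 normalized reads in WT, 134 in Flox replicate 2 and 328 in Flox replicate 4. A single library was therefore high, and the other Flox library lay inside the WT range. The log2 fold change of Adat2 was 0.68 (SE 0.32) with all libraries, −0.11 without Flox replicate 4 and 1.18 without Flox replicate 2.

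**Figure D1:**
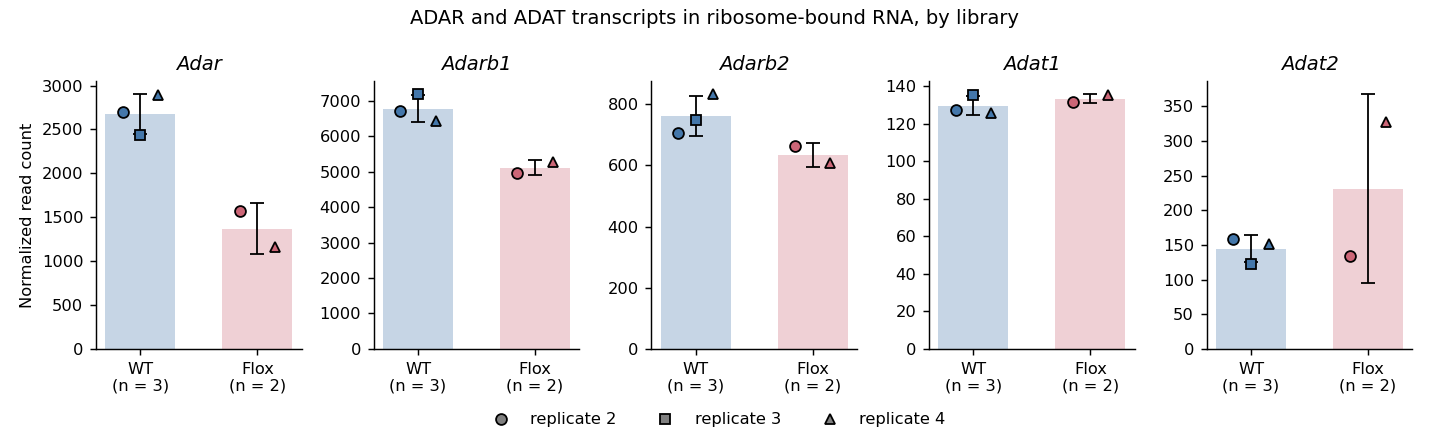
Normalized read counts (y axis, from 0) of the 5 counted members in each library, with WT in blue (n = 3) and Flox in red (n = 2). Points are libraries with one symbol per replicate number, bars are group means and error bars are SD. Both Flox libraries are below every WT library for Adar (1165 and 1574 against at least 2437), Adarb1 and Adarb2, whereas Adat1 overlaps and Adat2 is high in Flox replicate 4 alone (328).

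Adat3 (ENSMUSG00000113640.2), the partner subunit of Adat2, cannot be read from these counts. In the GENCODE M21 annotation all of its 1648 exon bases are shared on the same strand with Gm49322 (1516 bases) or with the secretory carrier protein gene Scamp4 (132 bases), so 0 bases belong to Adat3 alone. Reads that could belong to more than one gene made up 5.62% to 5.78% of the reads across the libraries and are assigned to none. Scamp4 was at 0 in every library as well, and Gm49322 had 0 to 3 counts. Reads from this locus were thus not resolved to a gene, and 0 counts of Adat3 set no upper limit on its transcript.

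Shared bases also touch other members. Adar shares 1365 of its 8118 exon bases (16.8%) with Chrnb2, the β2 subunit of the nicotinic acetylcholine receptor, which is transcribed from the opposite strand. Adat2 shares 249 of 1466 exon bases (17.0%) with the opposite-strand peroxisome biogenesis gene Pex3. These neighbours are described because of the overlap. The library preparation did not keep the strand, so a read that falls wholly in a shared stretch counts for neither gene. Chrnb2 had 1962, 1938 and 1804 normalized reads in WT and 1737 and 1667 in Flox. Its log2 fold change was −0.16 (SE 0.11), with a DESeq2 adjusted p of 0.437. The ratio of the Chrnb2 count to the Adar count was 0.727, 0.795 and 0.624 in WT and 1.10 and 1.43 in Flox. Pex3 had a log2 fold change of −0.09 (adjusted p = 0.839). Adarb1, Adarb2 and Adat1 share no exon base with another gene.

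Of the 5 counted members, 2 (Adar and Adarb1) passed a DESeq2 adjusted p of 0.05 in the lower direction, where 4.05% of the 15724 genes tested did. With a fold of at least 1.5 as well, 1 member (Adar) was left, against 1.41% of the genes tested. In the higher direction 0 members passed, against 4.2%. Both Flox libraries lay below all WT libraries for 3 members (22.5% of the genes tested) and above all WT libraries for 0 (19.9%). Since the family was selected on this comparison, nothing is read from these counts. The nearest members on either side of the adjusted p threshold in the lower direction were Adarb1 inside it, with a log2 fold change of −0.41, and Adarb2 outside it, with −0.27.

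The fall of Adar kept its direction in all 11 alternative settings. Its log2 fold change was −0.77 without Flox replicate 4, −1.20 without Flox replicate 2 and −1.04 with a replicate block. Trends of each library on GC content and transcript length, which accounted for −0.08 of the Adar difference on the log2 scale, left −0.90 when removed. Adarb1 ranged from −0.45 to −0.34 and Adarb2 from −0.33 to −0.20 over the same settings. Calls are compared here only for settings that keep both Flox libraries. The call of Adarb1 was lost by edgeR with a filter by expression, with a replicate block, and without WT replicate 2 or 3. Adar was still called lower in these settings. Fits without a Flox library rest on 1 Flox sample, and their calls are not compared. Adarb1 had a log2 fold change of −0.36 without Flox replicate 2 and −0.45 without Flox replicate 4. Adat2 changed sign in 1 of the 11.

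**Figure D2:**
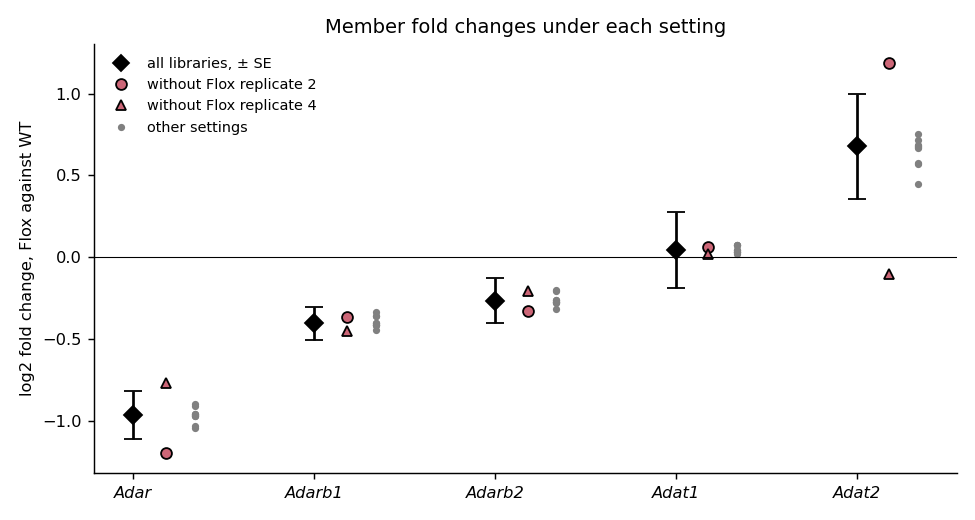
log2 fold change of the normalized count, Flox against WT (y axis), of each counted member. Diamonds with error bars are the fit of all 5 libraries ± SE, red symbols the fits without one of the Flox libraries and grey points the other settings. Adar lies between −1.20 and −0.77, and Adat2 spans −0.11 to 1.18 depending on which Flox library is left out.

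Levels were compared between genes per length, as RPKM computed from the counts (counts per kilobase of exon, scaled to the assigned counts of the library). In WT, Adarb1 stood at 27.6 ± 2.0 (SD, n = 3), Adar at 15.1 ± 1.06, Adat2 at 4.51 ± 0.572, Adarb2 at 2.66 ± 0.195 and Adat1 at 1.35 ± 0.0736 on this scale. The ranges of neighbours in this order did not overlap among the WT libraries. When the longest transcript was used as the length, Adarb2 (5.20) and Adat2 (4.51) changed places and their ranges overlapped, so the order of these genes depends on the gene model. Among the 26766 genes with a length and a count, 91.8% had a lower WT level than Adarb1, 86.9% than Adar, 72.6% than Adat2, 65.8% than Adarb2 and 57.9% than Adat1. In Flox the levels per length were 20.3 ± 0.357 (SD, n = 2) for Adarb1 and 7.57 ± 1.77 for Adar. Adat2 was at 4.18 and 9.85 in the Flox libraries and thus above Adar (6.32) in replicate 4 but below it (8.83) in replicate 2.

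**Figure D3:**
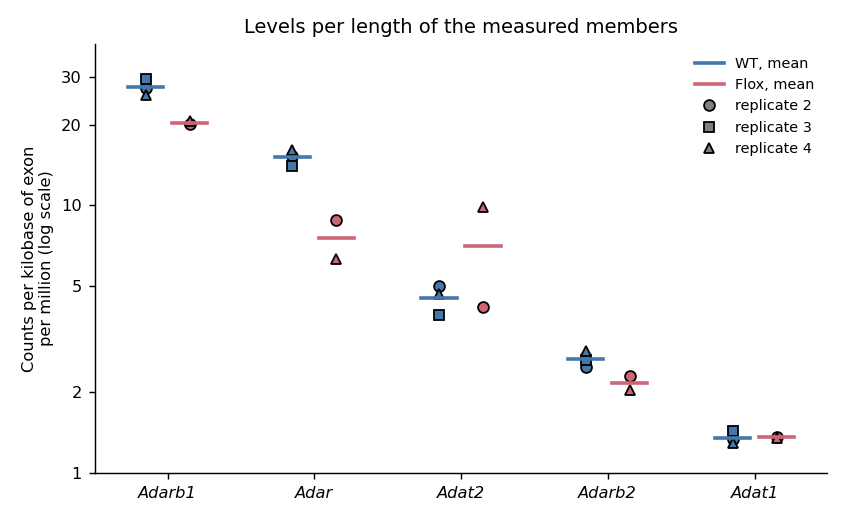
Level per length as RPKM from the counts (y axis, log scale) for the 5 counted members, in order of the WT mean, with WT in blue and Flox in red. Points are libraries and horizontal lines are group means. The WT means run from 27.6 for Adarb1 to 1.35 for Adat1, and the Flox libraries of Adat2 (4.18 and 9.85) lie on either side of those of Adar.

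The balance among the ADAR transcripts was described by ratios. Adarb1 over Adar, as a ratio of levels per length, was 1.79, 2.13 and 1.60 in WT and 2.27 and 3.25 in Flox. Adar made up 33.9%, 30.1% and 36.0% of the summed level of Adar, Adarb1 and Adarb2 in WT, and 28.3% and 21.9% in Flox. Both Flox libraries were outside the WT range in each of these ratios. The gap between the groups was narrower than the range within either of them, and the ratios rest on the same counts that chose the family. Adarb1 over Adarb2 overlapped between the groups (8.97 to 11.2 in WT, 8.73 and 10.1 in Flox).

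Genes with a profile like that of Adar were sought among 11521 genes with a mean of at least 100 normalized reads, by the root mean square (RMS) difference of log2(normalized count + 1), centred on each gene's mean, over the 5 libraries. The nearest were Carm1, an arginine methyltransferase that coactivates nuclear receptors (RMS difference 0.0324 on the log2 scale), Gpatch2l (0.0373), Arel1, an apoptosis-resistant E3 ubiquitin ligase (0.0570), Pde4d, a cyclic AMP phosphodiesterase (0.0575), and Phkg2, the catalytic subunit of a phosphorylase kinase (0.0593). All were lower in both Flox libraries than in every WT library and lowest in Flox replicate 4, as Adar was, with log2 fold changes of −0.96, −0.92, −0.88, −1.05 and −0.88 in the order named. With candidates of at least 500 normalized reads, 1 of the 5 (Arel1) remained. Carm1, Gpatch2l, Pde4d and Phkg2 had means of 423, 371, 312 and 354 and were thus no longer candidates, so this setting does not check their likeness. Likeness over 5 libraries from one comparison is a description, and many genes can share such a profile.

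**Figure D4:**
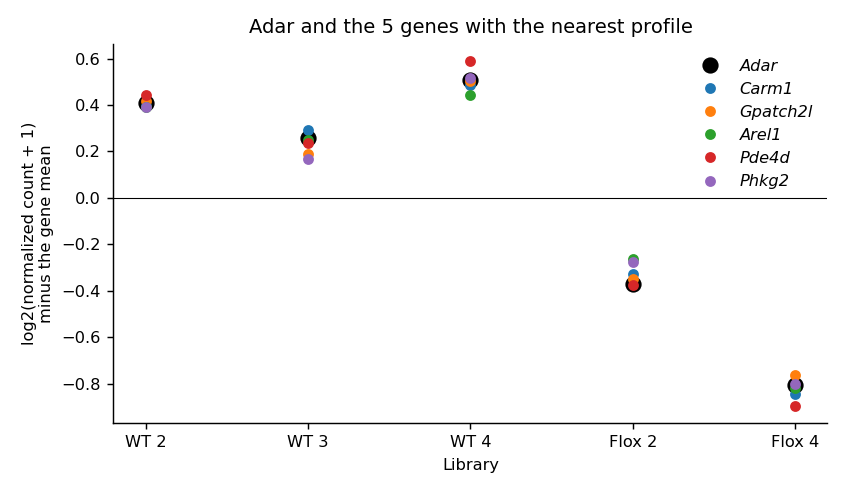
log2(normalized count + 1) minus the gene's mean over the 5 libraries (y axis) in each library (x axis), for Adar in black and the 5 nearest genes in colour. All 6 genes are above 0 in the WT libraries and below 0 in the Flox libraries, with the lowest values in Flox replicate 4 (Adar −0.80).

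The genes around RNA deamination were described by 9 lists with 115 genes, which held partners, substrates, sensors and other deaminases. Of these, 113 had a count and 107 could be tested. In Flox, 5 of the 107 rose (4.67%, against 4.2% of all genes tested) and 3 fell (2.80%, against 4.05%) at a DESeq2 adjusted p of 0.05. The median log2 fold change was −0.06 over the 107 genes and −0.01 over all genes tested. Both shares are close to those of the whole table.

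Among 20 partners and regulators of the ADAR enzymes, 0 passed the test (2 had an unadjusted p under 0.05, and edgeR called 0 with or without a filter by expression), with a median log2 fold change of 0.00. The nuclear RNA-binding proteins Sfpq and Nono had log2 fold changes of 0.21 (adjusted p = 0.602) and 0.07 (adjusted p = 0.876), and Zfr, a zinc finger RNA-binding protein known to oppose ADAR editing, had −0.23 (adjusted p = 0.333).

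Of 24 transcripts known to be recoded by editing, 2 rose and 1 fell, and the list's median log2 fold change was −0.04. Son, a splicing cofactor of nuclear speckles, had 4553, 4608 and 3959 normalized reads in WT and 5789 and 6906 in Flox. It rose with a log2 fold change of 0.54 (SE 0.12, DESeq2 adjusted p = 0.00066), and the groups did not overlap. Flna, which encodes the actin crosslinker filamin A, had 212, 195 and 144 normalized reads in WT and 286 and 311 in Flox, a log2 fold change of 0.70 (SE 0.21, adjusted p = 0.0201). The serotonin 2C receptor gene Htr2c, whose mRNA is edited at several sites, had 2225, 2039 and 2346 in WT and 1795 and 1478 in Flox. It fell with a log2 fold change of −0.43 (SE 0.13, adjusted p = 0.016). Gria2, the classic Adarb1 substrate, had 3754, 3998 and 3302 normalized reads in WT and 4025 and 3867 in Flox, and the groups overlapped (log2 fold change 0.10, adjusted p = 0.72). The most abundant transcripts of this list, Cyfip2, Blcap and Cadps, had log2 fold changes of −0.19, 0.08 and −0.15 and did not pass (adjusted p = 0.221, 0.728 and 0.416).

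The sensors of double-stranded RNA and the interferon-stimulated genes are of interest beside Adar, since Adar belongs to the interferon response and restrains it. Of 11 sensors, 1 rose, and the list's median log2 fold change was −0.11. In this list edgeR called 3 genes higher and 0 lower without a filter by expression, and 0 in either direction with it. Oas3, which makes the 2-5A signal that activates RNase L, had 21.1, 32.6 and 10.6 normalized reads in WT and 40.3 and 91.5 in Flox (log2 fold change 1.62, SE 0.54, adjusted p = 0.0366). The abundant sensors Eif2ak2 (PKR), Ddx58 (RIG-I) and Tlr3 had −0.14, −0.22 and −0.06 and did not pass (adjusted p = 0.74, 0.635 and 0.93).

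Of 16 interferon-stimulated genes, 0 rose and 1 fell, with a median log2 fold change of −0.25, and 3 had an unadjusted p under 0.05 in either direction. Ifit2, an interferon-induced RNA-binding protein gene, had 2641, 2369 and 2072 normalized reads in WT and 1315 and 1759 in Flox (log2 fold change −0.62, SE 0.15, adjusted p = 0.00237). With a replicate block its adjusted p was 0.457, and the call was also lost without WT replicate 2 and without Flox replicate 2. Ifit3, the most abundant of the list, overlapped between the groups, with 4809, 5677 and 7521 in WT and 3310 and 6265 in Flox (adjusted p = 0.751). Oasl2 had a log2 fold change of −0.25 (adjusted p = 0.478) and Bst2, which tethers budding virus, of 0.68 (adjusted p = 0.256). In this list edgeR without a filter by expression called 1 gene higher (Bst2) and 2 lower. The summed count of the list was 25062 to 29545 in WT, 19093 in Flox replicate 2 and 32995 in Flox replicate 4. The Flox libraries thus fell on either side of the WT range in this sum. In both Flox libraries 1 of the 16 genes (Ifit2) lay below all WT libraries and 1 (Bst2) lay above. Over all genes tested, 22.5% lay below and 19.9% above in this way. A link between Adar and interferon signalling was not tested.

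In the tRNA list, which holds 24 modification enzymes, 1 gene fell and 0 rose, and the median log2 fold change over the 23 tested genes was −0.08, and 4 had an unadjusted p under 0.05 in either direction. Both Flox libraries lay below all WT libraries for 10 of the 24 genes, where 22.5% of all genes tested had this pattern. Dalrd3, which encodes a factor for methylation of certain arginine tRNAs, had 971, 886 and 976 normalized reads in WT and 683 and 416 in Flox, a log2 fold change of −0.78 (SE 0.19, adjusted p = 0.00184). The tRNA cytosine methyltransferase Nsun2 had a log2 fold change of −0.30 (adjusted p = 0.065), Elp3 of the Elongator complex −0.02 (adjusted p = 0.943) and the guanosine methyltransferase Trmt1 0.00 (adjusted p = 0.991).

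The remaining lists hold other deaminases and genes that act on inosine. Of 10 cytidine deaminases and cofactors, 6 could be tested, and 2 rose. Apobec1, the apolipoprotein B mRNA editing enzyme, had 60.1, 69.3 and 68.2 normalized reads in WT and 79.7 and 200 in Flox (log2 fold change 1.08, SE 0.37, adjusted p = 0.0441). Apobec3, a restriction factor of retroviruses, had 101, 106 and 85.5 in WT and 138 and 228 in Flox (log2 fold change 0.91, SE 0.28, adjusted p = 0.0216). Cdadc1, Cda and Dctd had log2 fold changes of −0.11, −0.06 and −0.06 (adjusted p = 0.645, 0.913 and 0.931). Of 5 deaminases of free adenosine or AMP, 0 of the 4 tested passed (0 with an unadjusted p under 0.05, and 0 by edgeR with or without a filter), with log2 fold changes of 0.09 for Ampd2, −0.17 for Ampd3 and −0.23 for Adal. Of 3 genes that handle inosine, 0 passed by DESeq2 or by edgeR with or without a filter (0 with an unadjusted p under 0.05): Snd1 had −0.01, Itpa, which clears inosine triphosphate, 0.04 and the inosine-specific endonuclease gene Endov −0.18. The testis relatives Adad1 and Adad2 had at most 2 counts in a library and were not tested.

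**Figure D5:**
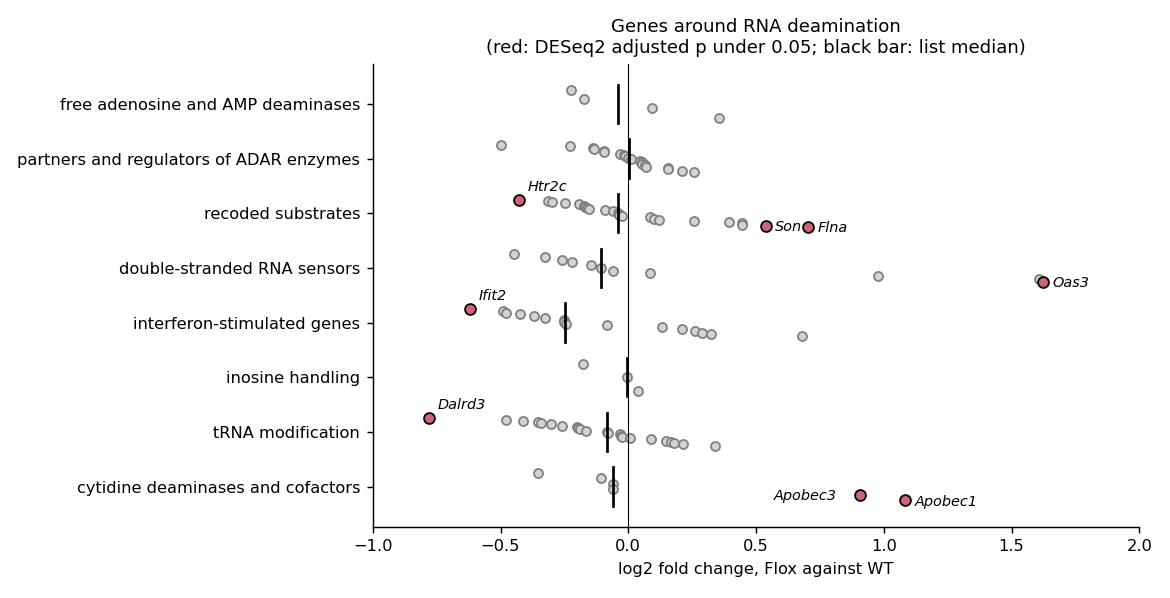
log2 fold change of the normalized count, Flox against WT (x axis), of the 107 tested genes in 8 lists (y axis; the 2 testis relatives were not tested). Each point is a gene, black bars are list medians, and red points passed a DESeq2 adjusted p of 0.05, which were 5 genes to the right of 0 and 3 to the left.

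All 8 of these genes kept their direction in the 11 alternative settings. After a filter by expression, edgeR's quasi-likelihood test called 0 of them, with adjusted p from 0.0501 for Son to 0.102 for Apobec1. With a replicate block 3 of the 8 (Son, Htr2c and Dalrd3) were still called. Adjusted p under the block was 0.205 for Flna, 0.457 for Ifit2, 0.343 for Apobec1 and 0.26 for Apobec3, and DESeq2 gave none for Oas3. Over the 11 settings Son and Dalrd3 were called in 9, Htr2c and Ifit2 in 7, Oas3 in 6, Apobec3 in 5, and Flna and Apobec1 in 4. A fit without either Flox library leaves 1 Flox sample, which is assumed to vary as the WT libraries do. Without Flox replicate 4, 0 list genes rose, and the log2 fold changes were 0.27 for Apobec1, 0.50 for Apobec3, 0.91 for Oas3, 0.64 for Flna and 0.40 for Son. Without Flox replicate 2, 9 rose.

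Markers of other cells differed between the groups alongside these genes. Of 10 microglial markers 8 rose (4 by edgeR after a filter by expression), and their summed normalized count was 1434 to 2748 in WT, 4807 in Flox replicate 2 and 10252 in Flox replicate 4. C1qa, a complement gene of microglia, had 627, 743 and 377 normalized reads in WT and 1598 and 4044 in Flox. Of 7 endothelial markers 3 rose, with sums of 108 to 260 in WT and 256 and 729 in Flox, but edgeR called 0 of them after the filter. Cldn5 had a log2 fold change of 1.58 (adjusted p = 0.0112). No gene of these marker lists was at 0 in all libraries. Flox replicate 4 thus held the highest microglial and endothelial sums together with the lowest Adar and the highest Adat2, Apobec1, Apobec3 and Oas3, and the part of these cells in the results was not tested. Flox replicate 2 had a microglial sum above the WT range (4807), an endothelial sum within it (256) and Adar below it. The log2 fold change of Adar without Flox replicate 4 was −0.77. In bulk RNA of this kind, fewer tagged cells and less transcript per cell cannot be told apart.

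The lists of neuronal and glial markers were set beside the labelled cell type. Of 10 DAergic markers 0 rose and 1 (Ret) fell, with sums of 50498 to 60262 in WT and 51522 and 54274 in Flox, and Aldh1a1 had a log2 fold change of −0.06 (adjusted p = 0.869). Of 5 GABAergic markers 1 rose and 1 fell (sums 32015 to 32453 in WT, 31481 and 29478 in Flox). Sst rose with a log2 fold change of 0.54 (DESeq2 adjusted p = 0.0157) and Gad2 fell with −0.35 (adjusted p = 0.0302). The most abundant, Gad1, had −0.28 (adjusted p = 0.052). None of the glutamatergic, astrocyte, oligodendrocyte or blood markers passed, and the most abundant glutamatergic, astrocyte and blood markers had log2 fold changes of −0.14 (Slc17a6), −0.10 (Gfap) and 0.75 (Hbb-bs). Of these lists, 1 astrocyte marker had an unadjusted p under 0.05 by DESeq2, and edgeR without a filter by expression called 1 astrocyte and 4 blood markers higher. Every marker list had counts in every library. The summed normalized count was 113476 to 167659 for the 8 oligodendrocyte markers and 44090 to 67470 for the 8 astrocyte markers over the 5 libraries, so RNA of glia was abundant beside that of DAergic neurons and the libraries are not of these neurons alone. The targeted gene Esrrg had 1763, 1643 and 1726 normalized reads in WT and 1504 and 1170 in Flox (log2 fold change −0.35, adjusted p = 0.0753). Counts per gene include exons outside the deleted one, so this is a weak check of the labels.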

How the data were processed

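Read counts per gene of 5 mouse TRAP libraries (3 WT, 2 Flox) were analysed. Per the labels, the authors trimmed reads with Trim Galore 0.6.6, aligned them with STAR 2.7.9a to GRCm39 and counted them with HTSeq 0.11.3; the study's methods name GRCm38 and other releases, so the build of the counts is not settled here and coordinates come from the reference alone. The deposited values are raw counts with no normalization, 20635855 to 23105058 assigned per library. A floor of 3 counts was 0.130 to 0.145 CPM, and limits of this kind cover counting error only. Rows of unassigned reads were left out of library sizes (no feature 3.18% to 4.45%, more than one gene 5.62% to 5.78%, not unique 3.60% to 4.23% of the reads).

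Symbols, exon lengths and overlaps were taken from GENCODE M21 (97.0% of 53700 gene IDs matched) and promoter windows from RefSeq (GRCm38.p6). Genes with at least 1 count (29407) were fitted with DESeq2 1.42.0 in R 4.3.3, the tool of the study (Wald test, two-sided, Benjamini-Hochberg over all genes, adjusted p under 0.05), after the code had been tested on simulated data. Adjusted p was given for 15724 genes. Alternatives were edgeR 4.0.16 without and with a filter by expression, TMM library sizes, at least 10 counts in at least 2 libraries, a replicate block, GC and length trends removed, and each library left out.

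The members and gene lists were chosen with earlier results of these data known. Genes named were the members, every list gene that passed, the 3 most abundant genes of each list, the most abundant gene of each marker list (for oligodendrocytes not reported here), Gria2, Htr2c, Scamp4, Esrrg and the 5 genes nearest to Adar. Chrnb2, Pex3 and Gm49322 were added for their overlap with members, and Ret because it was the only DAergic marker that passed. Sst and Gad2 were added as the GABAergic markers that passed. Nothing states that libraries came from separate cohorts, so p-values measure the spread between these samples.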

Additional observations from a re-analysis of the deposited data

How the results depend on the processing

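Directions of Adar, Adarb1, Adarb2 and Adat1 were kept in all 11 settings. Leaving out one library moved the log2 fold change of Adar between −1.20 and −0.77, the number of members called lower between 1 and 2 and of members called higher between 0 and 1 (Adat2, without Flox replicate 2), the list genes called higher between 0 and 9, and those called lower between 1 and 4. With edgeR, 9 list genes were higher and 4 lower without a filter. After the filter by expression, a setting chosen after seeing the data, 0 were higher and 0 lower. Of the members, edgeR called 2 lower and 1 higher without the filter, and 1 lower and 0 higher with it. Over all genes edgeR called 1005 higher and 794 lower without the filter and 147 and 89 with it, against 660 and 637 by DESeq2. Fits without a Flox library rest on 1 Flox sample, assumed to vary as the WT libraries do. Without Flox replicate 4, DESeq2 called 33 higher and 39 lower, and without WT replicate 2, 201 and 142. With the longest transcript as length, 3 of 5 members kept their place in the order of levels. With a mean of at least 500 normalized reads, 1 of the 5 genes nearest to Adar was kept, since the others had lower means. The causes of the other shifts were not tested. WT and Flox share the replicate numbers 2 and 4. Deviations from the group means correlated at 0.15 (number 2) and 0.107 (number 4) across 11522 genes. With 2 Flox libraries these deviations mirror each other, so exchanged numbers give the same sizes with opposite sign. WT 2 with Flox 4 gave −0.15 and WT 4 with Flox 2 gave −0.107. These values cannot decide on pairing, and with 2 shared numbers the libraries were not taken as paired. A replicate block gave 221 genes higher and 255 lower, 1 member called lower, and 1 list gene called higher and 2 lower. With 2 Flox libraries, an effect in one of them weighs heavily, and Adat1 and Adat2, with the fewest counts of the members measured, have larger standard errors than Adar.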
